A study of Mus musculus with 2 samples.

Results

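The genes described here encode chemokines of tumor cells. A list of 10 mouse symbols (Cxcl1, Cxcl2, Cxcl5, Cxcl9, Cxcl10, Cxcl16, Ccl2, Ccl5, Ccl7 and Cx3cl1) was matched by symbol, and 9 of them were found among the 24223 genes of the count tables. Ccl7 did not match and was not analysed here. The libraries came from CT26, a mouse colorectal cancer cell line of BALB/c origin. The DAC library was made from CT26 cells given decitabine (DAC), a cytosine analog that binds DNA methyltransferases once it is built into DNA, at 1 μM in 3 doses at intervals of 24 h, followed by 24 h in medium without the drug. The control library was made from CT26 cells handled in parallel without DAC. Each group is 1 library of 1 cell line, so no difference has a replicate check and no p-value is given.

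The DAC library held 35163420 counts and the control library 34221886 counts. Counts were scaled with TMM factors (1.07 for DAC and 0.936 for control) and are given as CPM, counts per 1000000 of the scaled library. A CPM of 1 equals 37.6 counts in DAC and 32 counts in control. A gene was measured if its CPM reached 1 in either library. Each ratio is the CPM in DAC divided by that in control, and is followed in parentheses by its 95% interval (exact, Clopper-Pearson), which covers counting error only. Genes with a ratio of 2 or more and an interval wholly above 1 were called higher in DAC, and genes with a ratio of 0.5 or less and an interval wholly below 1 were called lower. Of 13545 measured genes, 10.8% were called higher and 5.29% lower, which are 1468 and 716 genes (1889 and 458 when scaled by library totals). Low counts are less certain than their intervals, because the number of genes dropped abruptly from those with 3 counts (1240 in DAC and 1176 in control) to those with 4 (650 in DAC and 596 in control). More genes had a count of 0 in control (3506) than in DAC (1570), so a 0 in control alone is common.

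Chemokines are small secreted proteins that guide leukocytes along a gradient by binding G protein-coupled receptors. The CXC members with a Glu-Leu-Arg motif attract neutrophils through CXCR2, the interferon-induced Cxcl9, Cxcl10 and Cxcl11 attract activated T cells and NK cells through CXCR3, and the CC members attract monocytes and T cells. In tumors, the chemokines made by the malignant cells help to set which leukocytes enter.

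In the DAC library, Cxcl1 and Cx3cl1 were called higher, no chemokine of the list was called lower, and Cxcl10, the most abundant chemokine mRNA per kilobase, was close to its control level. Of the 9 genes, 4 were measured (Cxcl1, Cxcl10, Ccl5 and Cx3cl1), and the other 5 stayed under 1 CPM in both libraries. The called genes were 2 of 4, beside the share of 10.8% over all measured genes, but Cx3cl1 passed the minimum only through the DAC library, at 1.09 CPM, and had to differ. The median log2 ratio of the 4 was 1.12, against -0.02 over all measured genes, and with so few genes it rests on the members that passed. With no CPM minimum, Cxcl2 and Ccl2 were also called higher, which made 4 of 9, beside 2672 of 24223 genes. At a minimum of 5 CPM only Cxcl1 was called higher, 1 of 2 measured, beside 684 of 10795 genes. At a ratio of at least 4 only Cx3cl1 was called higher, beside 579 of 13545 genes.

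Summed over the 9 genes, chemokine mRNA stood at 42.6 CPM in DAC and 30.4 CPM in control. Cxcl1 made up 10.5 CPM of the difference of 12.1 CPM. Without Cxcl1 the sums were 28 CPM in DAC and 26.4 CPM in control. Cxcl10 held 53.2% of the counts of these 9 genes in DAC (exact binomial interval 50.7 to 55.6) and 76.9% in control (74.1 to 79.5). Cxcl1 held 34.1% in DAC (31.8 to 36.5) and 13.3% in control (11.3 to 15.6). The mRNA of these 9 genes was therefore divided mainly between Cxcl10 and Cxcl1 in DAC, and was mostly Cxcl10 in control. Ligands outside the list are not in these sums, among them Ccl25 at 11.2 CPM in DAC and 16.5 CPM in control.

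**Figure D1:**
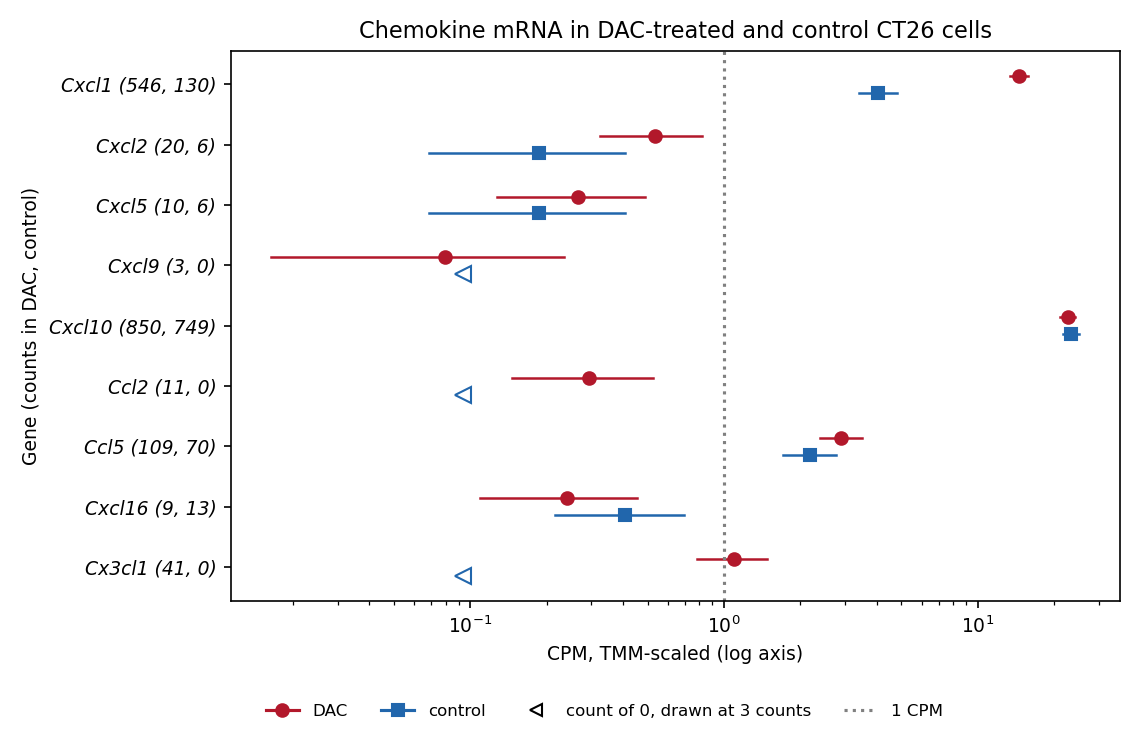
CPM on a log axis (x axis) for each matched chemokine gene (y axis, with the counts in DAC and control), in DAC (red circles) and control (blue squares). Bars are exact 95% Poisson counting intervals, open triangles mark counts of 0 drawn at the CPM of 3 counts, and Cxcl1 shows the widest gap among the genes above 1 CPM in both libraries, 14.5 CPM in DAC against 4.06 CPM in control.

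Levels of different genes were compared per kilobase of annotated exons, as CPM per kb. In the DAC library the order was Cxcl10 (10 CPM per kb, Poisson interval 9.38 to 10.7), Cxcl1 (7.75, 7.11 to 8.43) and Ccl5 (3.02, 2.48 to 3.64), with intervals that did not overlap. Far below followed Cx3cl1 (0.278, 0.199 to 0.377), Cxcl2 (0.257), Ccl2 (0.257), Cxcl5 (0.143), Cxcl16 (0.0793) and Cxcl9 (0.0265), and each of these overlapped its neighbors in the order. In the control library the level of Cxcl10 was 10.4 CPM per kb (9.66 to 11.2), above Ccl5 (2.28, 1.78 to 2.88) and Cxcl1 (2.17, 1.81 to 2.57), which overlapped each other. Below 1 CPM per kb the control library had Cxcl16 (0.134), Cxcl5 (0.101) and Cxcl2 (0.0906), also overlapping, while Ccl2, Cxcl9 and Cx3cl1 had counts of 0. The exons of Cxcl1, Cxcl10 and Ccl5 include retained introns, and per kb of the longest protein-coding transcript their levels were 15.2, 16.7 and 5.45 in DAC and 4.26, 17.3 and 4.11 in control. By that length Cxcl1 stood above Ccl5 in the control library too. In DAC the levels of Cxcl10 and Cxcl1 lay closer by that length, and their counting intervals then overlap.

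Among the CXCR2 ligands, Cxcl1 rose in the DAC library and its paralogs Cxcl2 and Cxcl5 were hardly expressed. Cxcl1, a neutrophil attractant (ENSMUSG00000029380, chr5:90891241-90893115, plus strand, GRCm38), had 546 counts in DAC and 130 counts in control. These equal 14.5 CPM in DAC and 4.06 CPM in control, a ratio of 3.58 (2.95 to 4.37). Because the RNA is bulk, more cells that express Cxcl1 and more Cxcl1 RNA per cell cannot be told apart. No 50-base stretch of its longest transcript occurs in another gene.

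Cxcl2, a close paralog with the same receptor, starts 12.6 kb from Cxcl1 (chr5:90903871-90905938, plus strand). It had 20 counts in DAC and 6 counts in control, or 0.532 CPM in DAC and 0.187 CPM in control. Its ratio of 2.84 (1.1 to 8.64) has an interval that holds the ratio of Cxcl1, but the gene lay under the CPM minimum. With the DAC library thinned to the scaled depth of control, its ratio was 2.33 (0.842 to 7.41), an interval that holds 1. Of its 50-base stretches, 5.35% occur in its paralog Cxcl3, so its count is uncertain to that extent. Cxcl5, whose product attracts neutrophils in mucosal tissue (chr5:90759360-90761624, plus strand), had 10 counts in DAC and 6 counts in control, a ratio of 1.42 (0.468 to 4.76), and a difference was not detectable at this depth. Neither paralog reached the 1 CPM that Cxcl1 exceeded in both libraries.

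The promoter windows of Cxcl1 and Cxcl2 are shown because the genes are neighbors that differ in level and whose windows share a motif stretch. Similarity over the whole windows was not measured. Each window runs from 250 bases before to 50 bases after the RefSeq start (build GRCm38.p6, plus strand), chr5:90890995-90891294 for Cxcl1 and chr5:90903649-90903948 for Cxcl2, and CG dinucleotides, the sites of DNA methylation, are in capitals.
Cxcl1: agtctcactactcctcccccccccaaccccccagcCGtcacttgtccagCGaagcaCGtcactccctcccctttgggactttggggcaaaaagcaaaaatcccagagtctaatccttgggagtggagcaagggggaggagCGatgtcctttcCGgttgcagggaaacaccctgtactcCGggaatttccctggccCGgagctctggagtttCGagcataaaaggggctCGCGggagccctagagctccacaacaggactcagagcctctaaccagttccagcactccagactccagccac
Cxcl2: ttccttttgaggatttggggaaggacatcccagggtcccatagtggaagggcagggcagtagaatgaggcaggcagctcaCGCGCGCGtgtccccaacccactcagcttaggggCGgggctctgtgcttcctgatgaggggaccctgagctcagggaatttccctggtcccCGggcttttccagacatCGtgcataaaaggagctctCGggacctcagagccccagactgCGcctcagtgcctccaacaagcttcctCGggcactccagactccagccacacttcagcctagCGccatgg
The Cxcl1 window holds 10 CG dinucleotides and the Cxcl2 window 11. Both hold the stretch GGGAATTTCC, a match to the letters of an NF-κB motif. Its first base is at -71 in Cxcl1 and at -97 in Cxcl2, counted from the RefSeq start at +1. The RefSeq starts differ from the gene starts given above, so these positions may not be comparable. This stretch, on either strand, occurs in 0.0883% of 32851 windows, and it was picked out after the matches had been seen.

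Among the CXCR3 ligands, Cxcl10 was abundant and nearly the same in both libraries, while Cxcl9 was almost absent. Cxcl10, an interferon-induced attractant of T cells (ENSMUSG00000034855, chr5:92346638-92348889, minus strand), had 850 counts in DAC and 749 counts in control. These equal 22.6 CPM in DAC and 23.4 CPM in control, a ratio of 0.967 (0.876 to 1.07), whose interval leaves out a 2-fold change in either direction. By library totals its log2 ratio was 0.14, on the other side of 0 from the -0.05 by TMM factors.

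Part of the Cxcl10 count may belong to another gene. Art3, an ADP-ribosyltransferase gene on the opposite strand, shares 133 exon bases with Cxcl10 and had 32 counts in DAC and 0 counts in control. The counting is not stated to use strand, so reads in the shared bases cannot be told apart, and 3.85% of the 50-base stretches of Cxcl10 occur in Art3. The Art3 counts are few beside those of Cxcl10 in DAC.

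Cxcl9 (chr5:92321347-92328079, minus strand), whose product shares the receptor of Cxcl10 and whose start lies 20.8 kb away, had 3 counts in DAC and 0 counts in control, so no ratio is given. A count of 0 allows up to 3 counts, or 0.0937 CPM, in the control library. The pair thus differed widely in level in each library. Cxcl11, the other ligand of this receptor and not on the list of 10, had 25 counts in DAC and 5 counts in control, a ratio of 4.26 (1.60 to 14.3) under the CPM minimum. Of the 50-base stretches of Cxcl11, 40.9% occur in other genes, so its count is uncertain.

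The promoter window of Cxcl10 is shown as the contrast to that of Cxcl1, an abundant gene that was not called (chr5:92348840-92349139, minus strand, GRCm38.p6, written in the direction of transcription, CG dinucleotides in capitals).
Cxcl10: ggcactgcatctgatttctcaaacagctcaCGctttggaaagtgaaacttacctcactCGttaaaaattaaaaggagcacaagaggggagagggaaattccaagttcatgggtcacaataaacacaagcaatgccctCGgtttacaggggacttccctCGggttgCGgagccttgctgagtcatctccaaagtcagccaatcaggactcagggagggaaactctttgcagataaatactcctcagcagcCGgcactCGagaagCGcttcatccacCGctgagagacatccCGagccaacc
It holds 10 CG dinucleotides, as many as the window of Cxcl1, and 1 match to the interferon-response motif of GAAA, any pair of bases and GAAA, with its first base at -213. That motif occurs on either strand in 3.44% of all windows. It was not found in the windows of Cxcl1, Cxcl2, Cxcl9 and Cx3cl1.

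Of the CC chemokines, Ccl5 was measured without a call and Ccl2 was detected only in the DAC library, as were 3506 of the 24223 genes. Ccl5, an attractant of T cells and monocytes (ENSMUSG00000035042, chr11:83525778-83530518, minus strand), had 109 counts in DAC and 70 counts in control. These equal 2.9 CPM in DAC and 2.19 CPM in control, a ratio of 1.33 (0.974 to 1.82). The interval holds 1 and leaves out 2. By library totals the ratio was 1.52 (1.11 to 2.08), an interval that leaves out 1 and holds 2. Ccl2, the main attractant of CCR2-positive monocytes (ENSMUSG00000035385, chr11:82035571-82037453, plus strand), had 11 counts in DAC and 0 counts in control. This is 3.12-fold higher with control set at 3 counts (counting interval from 2.14). At 0.293 CPM in DAC it lay under the CPM minimum, so it was not called. No 50-base stretch of either transcript occurs in another gene.

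The list holds both transmembrane chemokines, which are made as membrane proteins and can be shed, and 1 of the 2 was called. Cx3cl1, or fractalkine, the ligand of CX3CR1 on monocytes, NK cells and T cells (ENSMUSG00000031778, chr8:94772009-94782427, plus strand), had 41 counts in DAC and 0 counts in control. This is 1.09 CPM in DAC, 11.6-fold higher with control set at 3 counts (counting interval from 9.05). The call depends on the minimum, since 1.09 CPM lies just above it, and the gene is not measured at a minimum of 5 CPM. Cxcl16, the ligand of CXCR6 on T cells (ENSMUSG00000018920, chr11:70453983-70459984, minus strand), had 9 counts in DAC and 13 counts in control, a ratio of 0.59 (0.223 to 1.49). It lay under 1 CPM in both libraries, and 19% of its 50-base stretches occur in Zmynd15, a gene on the opposite strand with 16 counts in DAC and 0 counts in control that shares 552 exon bases with it. Reads in those bases cannot be assigned to either gene.

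The promoter window of Cx3cl1 is shown because it is the window of the gene that was at 0 in control and called in DAC (chr8:94771930-94772229, plus strand, GRCm38.p6, CG dinucleotides in capitals).
Cx3cl1: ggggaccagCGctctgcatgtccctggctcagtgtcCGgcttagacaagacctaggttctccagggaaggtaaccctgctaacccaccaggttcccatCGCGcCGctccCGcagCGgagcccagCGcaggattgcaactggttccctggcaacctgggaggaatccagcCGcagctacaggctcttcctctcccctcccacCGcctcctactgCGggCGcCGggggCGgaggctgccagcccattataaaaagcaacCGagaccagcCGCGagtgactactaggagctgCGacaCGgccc
With 19 CG dinucleotides it had the most among the 5 chemokine windows available (Cxcl1, Cxcl2, Cxcl9, Cxcl10 and Cx3cl1). Of all windows, 28.1% hold at least as many. Methylation of these sites was not analysed here.

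The windows of a called and an uncalled gene had equal CG counts. Cxcl1, called higher, and Cxcl10, close to a ratio of 1, had 10 each, a number that 43.5% of windows reach. Cxcl2 had 11, and Cxcl9 had 4, which 68.6% of windows reach. The median over all windows was 7 (quartiles 3 and 20). Matches to the NF-κB letters GGG, any 5 bases and CC were found at 2 places in each of the windows of Cxcl1, Cxcl2 and Cxcl10 and at 1 place in that of Cxcl9, with matches that overlap on the opposite strand counted once. The Cx3cl1 window held no match to these letters, which occur on either strand in 50.8% of all windows.

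**Figure D2:**
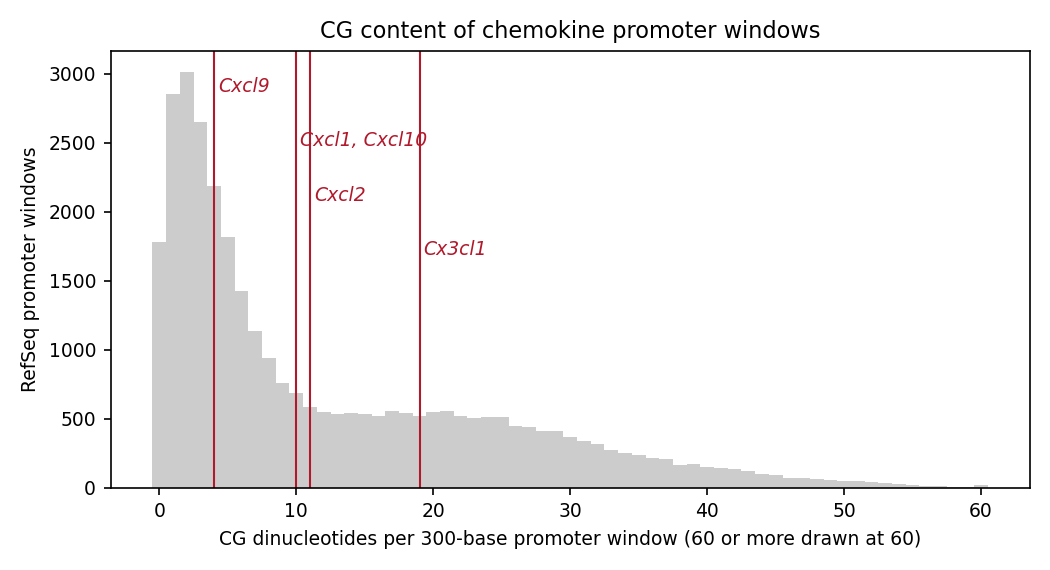
Number of CG dinucleotides per window of 300 bases (x axis) against the number of RefSeq promoter windows (y axis, gray bars), with red lines at the chemokine windows. Cx3cl1 stands at 19 and Cxcl9 at 4, on either side of Cxcl1 and Cxcl10 at 10 and Cxcl2 at 11.

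Cxcl1 and Cxcl2 also carried the AU-rich nonamer ATTTATTTA, a motif through which chemokine mRNAs are known to be destabilized. The longest protein-coding transcript of Cxcl1 holds 2 copies and that of Cxcl2 holds 4, counting overlapping copies on the sense strand. Among 15335 genes with a protein-coding transcript, 1.43% hold at least 2 and 0.202% at least 4. The other 7 matched chemokines, Cxcl5 among them, hold none, and 6.48% of these genes hold at least 1.

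Beyond the list of 10, no chemokine ligand was called in either direction. Of 30 further ligands, 14 matched and 1 was measured. This was Ccl25, an attractant of gut-homing T cells, with 419 counts in DAC and 529 counts in control, a ratio of 0.675 (0.592 to 0.769). Under the CPM minimum, 4 ligands had a ratio of at least 2 with an interval above 1, namely Cxcl11 (given above), Ccl20, Ccl4 and Cxcl3. Over all genes with no minimum, 2672 of 24223 were called higher and 1239 lower. Ccl20, which attracts CCR6-positive cells, had 36 counts in DAC and 0 counts in control, 10.2-fold higher against 3 counts (from 7.9), at 0.958 CPM in DAC. Ccl4 had 35 counts in DAC and 12 counts in control, a ratio of 2.49 (1.26 to 5.26). Cxcl3, a CXCR2 ligand near Cxcl5, had 20 counts in DAC and 0 counts in control, 5.68-fold higher against 3 counts (from 4.21). In the other direction, Ccl28 had 13 counts in DAC and 27 counts in control, a ratio of 0.41 (0.194 to 0.823). All of these ligands except Ccl25 had fewer than 1 CPM in both libraries.

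**Figure D3:**
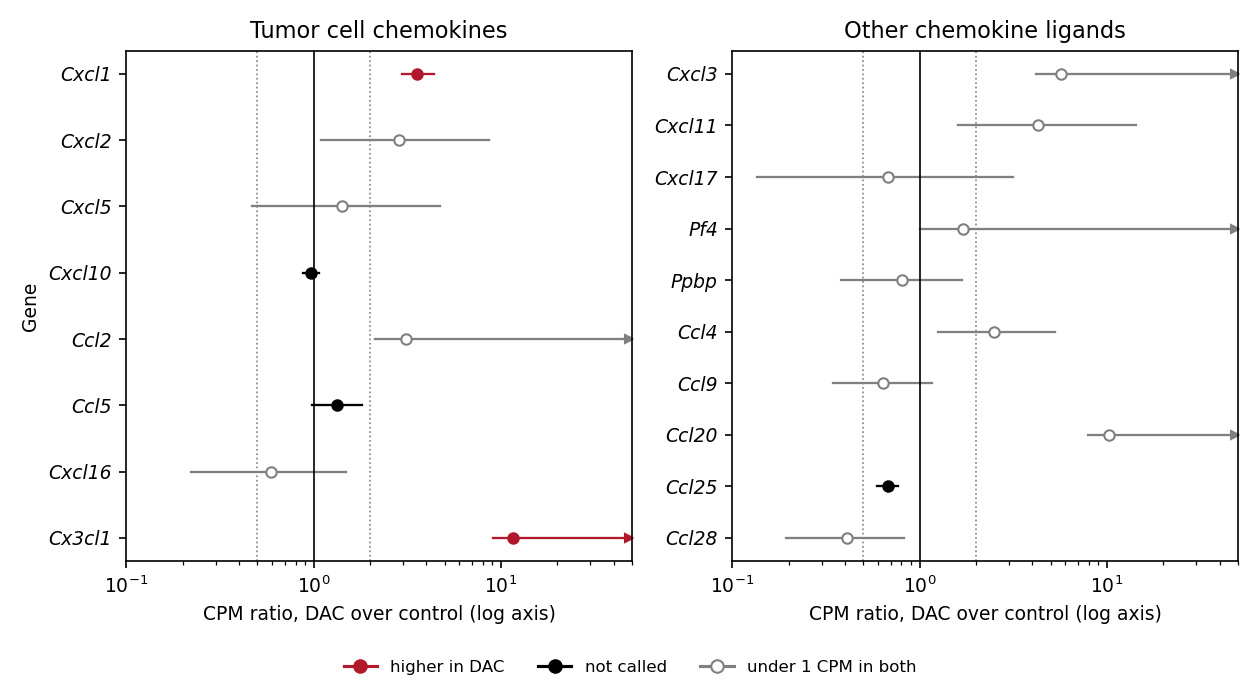
DAC over control CPM ratio, on a log x axis, of the listed chemokines (left) and the other chemokine ligands (right), with 95% counting intervals, and arrows where an interval is open. Points of genes with 0 control counts are set against 3 counts, dotted lines mark ratios of 0.5 and 2, and the filled red points are Cxcl1 at 3.58 and Cx3cl1 at 11.6.

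No measured chemokine receptor gene was called, but the receptors of several listed ligands did not match. Of 18 chemokine receptor genes, 9 matched and 2 were measured. Neither of these was called, beside 10.8% called higher and 5.29% lower over all measured genes. Cxcr2, Cxcr3 and Cxcr6 did not match and could not be called. Ccr1, which binds Ccl5 among others, had 226 counts in DAC and 318 counts in control, a ratio of 0.606 (0.508 to 0.721). Ccr10 had 46 counts in DAC and 32 counts in control, a ratio of 1.23 (0.763 to 1.99). Cx3cr1, the receptor of fractalkine, lay under the minimum, with 22 counts in DAC and 19 counts in control. So did Ccr2, the receptor of Ccl2, with 16 counts in DAC and 0 counts in control. Its ratio was 4.55 with control set at 3 counts (from 3.29). With no minimum Ccr2 was called higher, beside 2672 of 24223 genes. The atypical receptor Ackr3, which takes up chemokines without G protein signaling, had 539 counts in DAC and 407 counts in control, a ratio of 1.13 (0.99 to 1.29).

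Of 10 genes for the processing of chemokines, 6 were measured. Of these, 1 was called higher and none lower, beside 10.8% and 5.29% of all measured genes. Adam10 and Adam17, the sheddases of the transmembrane chemokines, had ratios of 0.695 (0.655 to 0.737) and 0.909 (0.852 to 0.969). Mmp14, a membrane metalloproteinase with the highest CPM of the list, had a ratio of 0.953 (0.915 to 0.992). By library totals the ratios of Adam17 and Mmp14 were 1.04 (0.973 to 1.11) and 1.09 (1.05 to 1.13), on the other side of 1. The called gene was Mmp3, a secreted metalloproteinase, with 53 counts in DAC and 6 counts in control, a ratio of 7.53 (3.24 to 21.4), at 1.41 CPM in DAC. Mmp3 passed the minimum only through the DAC library, with 0.187 CPM in control, and is not measured at a minimum of 5 CPM.

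In the NF-κB arm, which drives Cxcl1, Cxcl2 and Ccl2 in many cell types, Tnf, Nfkbia and Nfkbie were higher and Tnfaip3 was lower. Of 19 genes, 17 were measured, so that 3 of 17 were higher and 1 of 17 lower, beside 10.8% and 5.29% of all measured genes, and the median log2 ratio was 0.03. Nfkbia, the inhibitor IκBα and itself a target of NF-κB, had 1454 counts in DAC and 366 counts in control, a ratio of 3.39 (3.02 to 3.81). Nfkbie, a related inhibitor, had 554 counts in DAC and 167 counts in control, a ratio of 2.83 (2.37 to 3.38). Tnf, a ligand that starts the pathway, had 58 counts in DAC and 0 counts in control, 16.5-fold higher against 3 counts (from 13). It passed the minimum only through the DAC library, at 1.54 CPM. The intervals of Nfkbia and Nfkbie overlap that of Cxcl1, and shared control of these genes was not tested. Tnfaip3, the inhibitor A20, went the other way, with 1522 counts in DAC and 3345 counts in control, 2.58-fold lower (2.43 to 2.74). None of the 5 subunits of the factor (Nfkb1, Nfkb2, Rel, Rela and Relb) was called with TMM factors. Relb had a ratio of 1.78 (1.64 to 1.94), and by library totals it was called higher, at 2.03. Rela had a ratio of 1.44, and 1.09 after GC centring. Nfkb2, with the highest CPM of the arm, had a ratio of 1.3 (1.26 to 1.34), but 0.978 (0.95 to 1.01) after GC centring, which turns its direction, and 18.5% of its 50-base stretches occur in other genes.

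In the interferon arm, which drives Cxcl9 and Cxcl10, 4 of 15 genes were higher and none was lower, beside 10.8% and 5.29% of all measured genes, and the median log2 ratio was 0.56. After GC centring 3 were higher. Irf8 had 298 counts in DAC and 54 counts in control, a ratio of 4.7 (3.51 to 6.41). Irf7 had 6856 counts in DAC and 1930 counts in control, a ratio of 3.03 (2.88 to 3.19), and Irf1 had 2004 counts in DAC and 676 counts in control, a ratio of 2.53 (2.31 to 2.76). These interferon regulatory factors act downstream of interferon or nucleic acid sensing. Stat2, a transcription factor of type I interferon signaling and the gene with the highest CPM of the arm in DAC, had a ratio of 2.06 (1.98 to 2.15), and after centring on GC content its log2 ratio of 0.98 was under the 2-fold limit. Cxcl10 had a ratio of 0.967 in the same comparison, and a link between it and these factors was not tested. None of 6 genes that control the stability of chemokine mRNAs was called with TMM factors, and Zfp36l2, with the highest CPM, had a ratio of 0.901 (0.875 to 0.927). Zc3h12a, which encodes the RNase regnase-1, had 480 counts in DAC and 231 counts in control, a ratio of 1.77 (1.51 to 2.08), and was called higher by library totals, at 2.02.

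**Figure D4:**
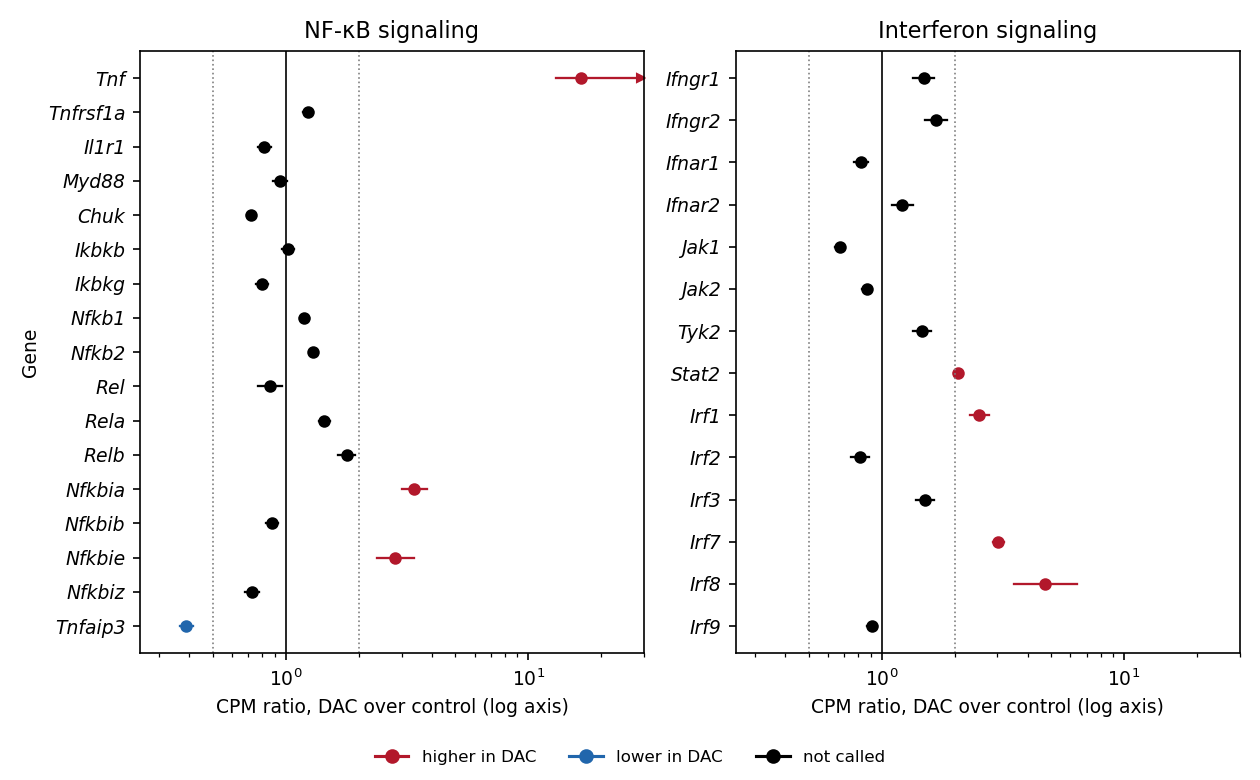
DAC over control CPM ratio, on a log x axis, of measured genes of NF-κB signaling (left) and interferon signaling (right), with 95% counting intervals and dotted lines at 0.5 and 2. Nfkbia at 3.39 and Nfkbie at 2.83 lie to the right of the factor subunits, Tnfaip3 is the blue point at 0.388, Tnf is set against 3 control counts, and Irf8 is farthest to the right among the interferon genes at 4.7.

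Among the genes next to the chemokines, Arrb2 was called higher and Ppef2 lower. Of 37 other protein-coding genes that start within 100 kb of a listed chemokine, 26 matched and 16 were measured, with 1 higher and 1 lower, beside 10.8% and 5.29% of all measured genes. Mthfd2l, a folate enzyme gene 39.9 kb from Cxcl1, had 858 counts in each library, a ratio of 0.852 (0.774 to 0.938). Ciapin1, 66.3 kb from Cx3cl1, had a ratio of 0.67 (0.64 to 0.701). The gene called higher was Arrb2, near Cxcl16, which encodes an arrestin that binds activated chemokine receptors, with 834 counts in DAC and 319 counts in control, a ratio of 2.23 (1.96 to 2.54). After GC centring its log2 ratio was 0.97. The gene called lower was Ppef2, near Cxcl9 and Cxcl10, with 19 counts in DAC and 36 counts in control, a ratio of 0.45 (0.244 to 0.805). Its call was lost by library totals and with counts divided by 3.

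No leukocyte, endothelial or fibroblast marker was called with TMM factors. Of 8 leukocyte markers 3 matched, and Ptprc, which encodes CD45, had 0 counts in DAC and 3 counts in control. Lyz2, under the CPM minimum, had 17 counts in DAC and 31 counts in control, a ratio of 0.467 (0.243 to 0.871). Summed over the list, leukocyte markers stood at 22 CPM in DAC and 15.7 CPM in control, nearly all of it Cd68, a lysosomal protein gene with a ratio of 1.47 (1.31 to 1.65). Of the endothelial markers, all 3 were under 1 CPM in both libraries, and their sum was 0.479 CPM in DAC and 0.812 CPM in control. Among them Tek had 6 counts in DAC and 18 counts in control, a ratio of 0.284 (0.0923 to 0.747). Pecam1 had 12 counts in DAC and 5 counts in control. The fibroblast markers summed to 100 CPM in DAC and 96.6 CPM in control, mostly Col1a1, with a ratio of 0.974 (0.926 to 1.02). The other fibroblast markers had higher ratios, 1.69 (1.42 to 2.02) for Pdgfra and 1.56 (1.14 to 2.14) for Dcn, and Lum had 11 counts in DAC and 0 counts in control. The median log2 ratio of the 3 measured fibroblast markers was 0.64, and Dcn was called higher after GC centring, at 2.01. The part of these markers in the ratios of Cxcl1 and Cx3cl1 was not tested. Of the epithelial markers, Krt18 and Krt20 were present in both libraries and Epcam did not match. Cdh1 had 9 counts in DAC and 0 counts in control, and Krt8 had 4445 counts in DAC and 5 counts in control. Krt8 and Krt20 were called higher, 2 of 3 measured, beside 10.8% of all measured genes. Of the 50-base stretches of Krt8, 29.7% occur in other genes. Whether these epithelial genes and Cxcl1 or Cx3cl1 differed in the same cells was not tested.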

How the data were processed

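RNA-seq of 1 DAC-treated and 1 control CT26 library was analysed. The authors deposited whole-number counts per Ensembl gene, without normalization. For processing, build mm10 and the tools STAR 2.5.3a, Cufflinks, DESeq, StringTie 1.3.1c, FastQC and Trim Galore are listed in the submitters' processing notes, and the paper's methods name poly-T selection, a TruSeq kit, CASAVA, TopHat and Bowtie. None of these sources says which tool counted the reads, or whether strand was used. Symbols and positions came from GENCODE M21 (GRCm38), which matched 24122 gene identifiers and left 101 unmatched, and promoter windows from a table of RefSeq sequences (GRCm38.p6), in which 5 of the 10 listed genes were matched. TMM factors came from edgeR 4.0.16. Ratios and intervals were computed with Python 3.11.15, numpy 2.4.6 and scipy 1.17.1, and the steps were tested on simulated data. A count of 0 was set at 3 counts in ratios, and no ratio was taken where both counts were at most 3.

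The members and the 11 further gene lists were chosen with earlier results of these data known. Named genes were all listed chemokines, the called genes and the most abundant measured gene of each further list, and called genes within 100 kb. Genes named outside this rule (such as Cxcl11, Ccl4, Ccl20, Cxcl3, Ccl28, Cx3cr1, Art3, Zmynd15, Adam10, Rela, Relb, Zc3h12a, Pdgfra, Dcn and Mthfd2l) were chosen after their values were seen. 1 gene of the interferon list is not reported here by itself. Genes of most similar pattern were not sought, since 2 libraries give 1 ratio per gene. As alternatives, counts were scaled by upper-quartile factors, by DESeq2 1.42.0 size factors and by library totals. Further ones were other CPM minimums and folds, counts divided by 3, thinning of the DAC library, GC centring in 20 bins, a prior count of 2 and other transcript lengths.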

Additional observations from a re-analysis of the deposited data

How the results depend on the processing

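The number of listed chemokines called higher in DAC was 2. It was 1 at a minimum of 5 CPM, 4 with no minimum and 1 at a ratio of at least 4, because these settings change which genes can be called. It stayed at 2, Cxcl1 and Cx3cl1 each time, by library totals, DESeq2 or upper-quartile factors, a ratio of 1.5, counts divided by 3, thinning and GC centring. No chemokine of the list was called lower under any of these settings. By library totals the median log2 ratio of all measured genes was 0.18, against -0.02 by TMM factors, and that of Cxcl10 was 0.14, against -0.05. All other log2 ratios of the listed chemokines stayed inside their counting intervals under the scaling, thinning, GC and prior count alternatives. After thinning, however, the interval of the Cxcl2 ratio was 0.842 to 7.41 and held 1. By library totals the interval of the Ccl5 ratio was 1.11 to 2.08 and left out 1. Of 285 alternative values for 57 other named or listed genes, 205 stayed inside the interval, 80 moved and 0 calls changed direction. GC centring turned the direction of several uncalled genes. Among them were Nfkb2 (log2 ratio -0.03, against 0.37), Cxcl10 (0.05, against -0.05), Adam17 (0.03, against -0.14) and Rel (0.05, against -0.22). Library totals turned others, among them Adam17 (0.05), Mmp14 (0.12, against -0.07) and Zfp36l2 (0.04, against -0.15). Of the further lists, library totals gave 1 other ligand, 1 mRNA stability gene and 4 NF-κB genes called higher, against 0, 0 and 3. GC centring gave 1 fibroblast marker and 3 interferon genes called higher, against 0 and 4, and thinning gave 1 other ligand. With no minimum, 4 other ligands were higher and 1 was lower, beside 2672 and 1239 of 24223 genes. A ratio of 1.5 added higher calls in the NF-κB, interferon, mRNA stability, fibroblast and epithelial lists and 1 lower call in the receptor list. Over all 13545 measured genes it gave 2612 higher and 2059 lower. A ratio of 4 left 1 gene higher in each of the NF-κB, interferon, processing and epithelial lists, beside 579 higher and 112 lower over all measured genes. Differences between cultures are not covered, and depth limits what can be said of the 5 chemokines under 1 CPM. No paired analysis was possible because each group has 1 library. The length used for levels per kb, where protein-coding transcripts were added after seeing the data, changed the order of Cxcl1 and Ccl5 in control. It also decided whether the intervals of Cxcl10 and Cxcl1 in DAC overlapped.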
